A study of Homo sapiens with 12 samples.

Results

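The genes of mitochondrial fission are described here in 12 RNA sequencing libraries of SBC3, an established human small cell lung cancer line grown as spheroids. The 10 genes were chosen by symbol, as the dynamin-related GTPase DNM1L and the proteins known to recruit, assist or regulate it, among 60649 genes counted in each library. Each of 4 treatment groups had 3 libraries: control, teriflunomide, lurbinectedin, and both drugs together (called the combination). The labels give no dose and no exposure time, and they do not say whether the libraries of a group came from separate cultures, so the p-values below measure the spread between these libraries only. Teriflunomide blocks DHODH, an enzyme that cells need to make pyrimidines. Lurbinectedin, an alkylating agent, attaches to guanines in GC-rich stretches of DNA and blocks transcription.

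Mitochondria divide when DRP1, the product of DNM1L, is recruited from the cytosol to the outer membrane, assembles into rings and constricts the organelle. MFF and the MiD proteins encoded by MIEF1 and MIEF2 are its main receptors in mammals, FIS1 is a further outer membrane protein of the machinery, and actin polymerised by INF2 at contacts with the endoplasmic reticulum narrows the mitochondrion beforehand. DRP1 is controlled largely after translation, by phosphorylation, ubiquitin and SUMO, so a transcript level says nothing of its activity.

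In short, lurbinectedin changed 4 of the 10 fission genes, in both directions, where 71.6% of all genes tested were called. MIEF1 rose about as much as the long gene MTFR1 fell, MTFR1L and DNM1L fell less, and the receptors MFF and FIS1 and the factors INF2 and GDAP1 did not pass the test. Teriflunomide alone changed no fission gene by the test, where 6.01% of all genes were called. Adding it to lurbinectedin changed none either, where 0.0% of all genes were called. Values are CPM, which are read counts brought to the same effective library size, given as mean ± SD over 3 libraries of a group. A gene is called where its adjusted p is under 0.05 (edgeR quasi-likelihood, Benjamini-Hochberg over 16683 genes tested), and all 10 fission genes passed the filter on low counts.

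Total counts per library ranged from 23206414 to 33222162. The share of counts on mitochondrially encoded genes was 6.26% to 8.43% in control and in teriflunomide libraries 1 and 2, and 13.1% to 17.0% in lurbinectedin libraries and combination libraries 1 and 3. Teriflunomide library 3, at 22.6%, and combination library 2, at 24.9%, stood apart. Where a treatment difference of a fission gene below rests on 1 of them, its value without that library is given. For genes of the wider lists such values are not given. Of 12 small cell and epithelial markers only 6 passed the filter. The neuroendocrine markers INSM1 and NCAM1, the subtype marker POU2F3 and the epithelial markers EPCAM and KRT18 were at or near 0. In control YAP1, also a subtype marker, was at 246 CPM, and KRT8, an epithelial marker, at 243 CPM. SYP was at 16.8 CPM and NEUROD1 at 4.03 CPM. Some neuroendocrine markers listed for the labelled cell type were thus absent or nearly so. Among markers of other cell types, 3 of 4 passed, PTPRC (leukocytes) was at most at 0.0957 CPM in any library, and the summed level of the list was 261 to 274 CPM in control, 234 to 252 under teriflunomide, 96.9 to 114 under lurbinectedin and 93.9 to 111 under both drugs. Nearly all of this was COL1A1, at 266 CPM in control. COL3A1, the other fibroblast marker listed, was at 1.07 CPM there and PECAM1 (endothelium) at 0.364 CPM. The part of COL1A1 in the lurbinectedin results was not tested. In bulk RNA, fewer cells of a type and less RNA per cell cannot be told apart.

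**Figure D1:**
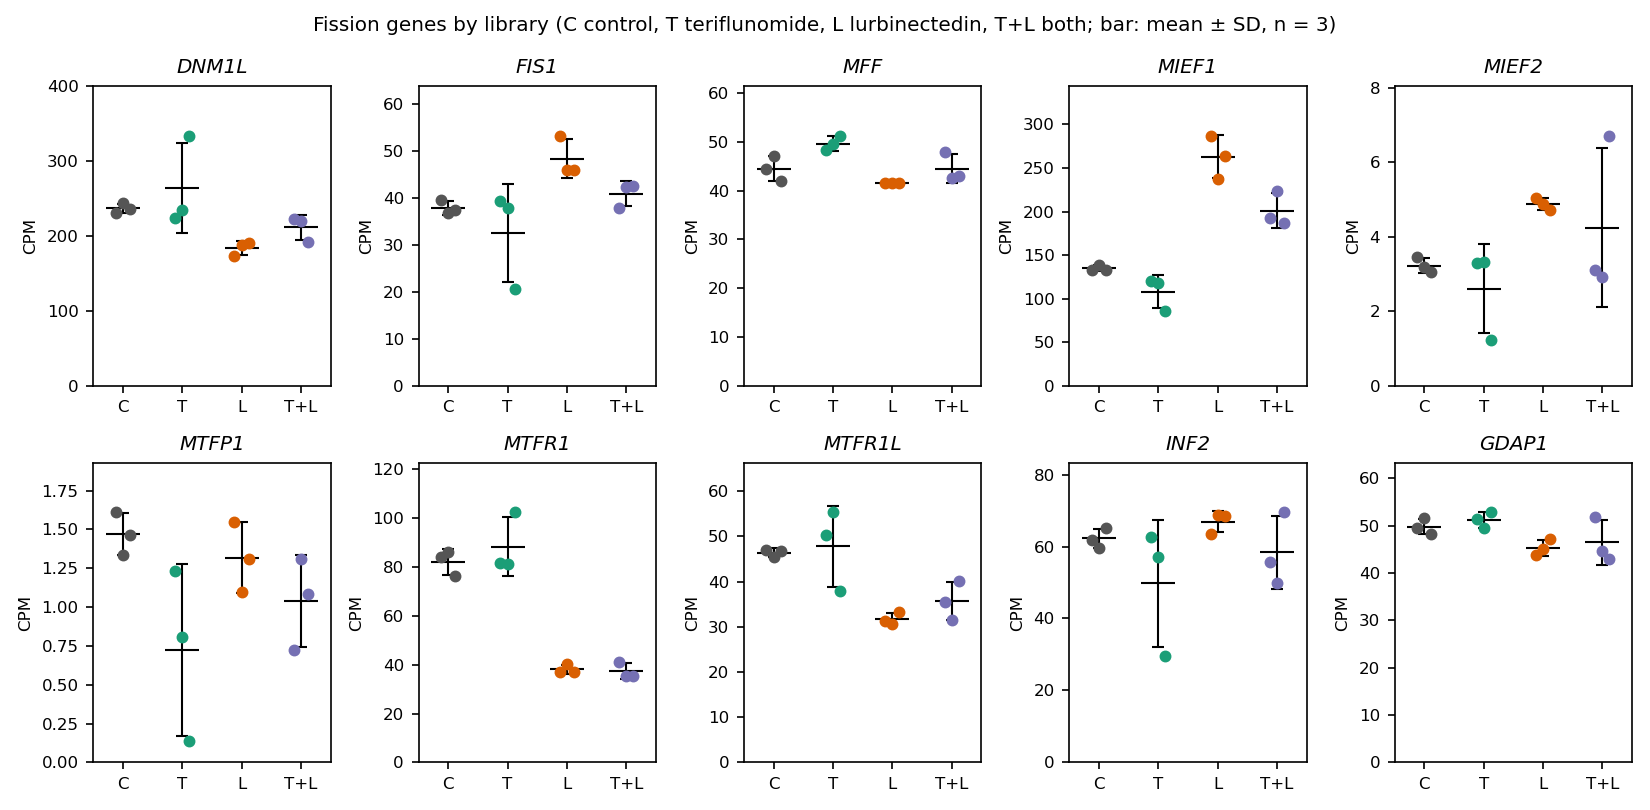
Level of each fission gene (CPM, linear axis from 0) in each of the 12 libraries by group, with the group mean ± SD (n = 3). MIEF1 libraries with lurbinectedin lie at 238 to 287 CPM, above all others, MTFR1 lies at 35.4 to 41.1 CPM in all libraries with lurbinectedin, and teriflunomide library 3 stands apart for several genes.

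The genes differed widely in level in control spheroids, where values were set per kilobase of annotated exon to compare genes. DNM1L was the highest at 32.6 ± 0.880 CPM per kb, followed by FIS1 at 21.2 ± 0.830. MIEF1, at 17.9 ± 0.460, and MTFR1, at 17.7 ± 1.13, overlapped between libraries. Below them came MTFR1L at 8.004 ± 0.161, MFF at 7.23 ± 0.418, INF2 at 4.57 ± 0.202 and GDAP1 at 2.05 ± 0.0667. MTFP1, at 0.916 ± 0.0847, and MIEF2, at 0.826 ± 0.0529, overlapped at the bottom. Of the MiD receptor genes, MIEF1 was thus far above MIEF2. The length used is the union of all annotated exons, which is 24.3 kb for GDAP1 and 13.6 kb for INF2, and a level per kilobase is understated where the cells use only some of these exons. With lurbinectedin the order at the top differed: MIEF1 was at 34.8 ± 3.24 CPM per kb, FIS1 at 27.0 ± 2.33 and DNM1L at 25.3 ± 1.24, and the libraries of FIS1 and DNM1L overlapped.

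DNM1L, the gene of DRP1 itself, lies at chr12:32679200-32745650 on the + strand and spans 66.5 kb. Its libraries had 231, 244 and 236 CPM in control, 225, 235 and 334 under teriflunomide, 174, 188 and 191 under lurbinectedin, and 223, 220 and 193 under both drugs. All lurbinectedin libraries lay below all control libraries, the combination libraries lay between these groups with no overlap, and teriflunomide library 3 was the highest of the 12. With lurbinectedin DNM1L fell by 0.36 on the log2 scale (SE 0.132, edgeR adjusted p = 0.0235), which is 1.29-fold lower. The call was lost without control library 2 (-0.35, edgeR adjusted p = 0.0633) and without lurbinectedin library 1 (-0.34, edgeR adjusted p = 0.0638). Against control the combination differed by -0.16 (SE 0.131, edgeR adjusted p = 0.285), which did not pass, and without combination library 2 and teriflunomide library 3 the value was -0.20 and passed (edgeR adjusted p = 0.0186). DNM1L in the combination was 0.20 above lurbinectedin alone (SE 0.132, edgeR adjusted p = 0.482) and was not called.

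The receptor genes gave the largest rise of the set. MIEF1, which encodes MiD51, an outer membrane anchor that binds DRP1, lies at chr22:39499432-39518132 on the + strand. Its libraries had 132, 139 and 133 CPM in control, 120, 118 and 86.1 under teriflunomide, 287, 238 and 264 under lurbinectedin, and 193, 224 and 187 under both drugs. The lurbinectedin libraries were the highest, the combination libraries came next and the teriflunomide libraries were the lowest, with no overlap between any groups. Against control, MIEF1 rose by 0.96 on the log2 scale with lurbinectedin (SE 0.128, edgeR adjusted p = 1.23e-05), a 1.95-fold rise, and in the combination by 0.58 (SE 0.128, edgeR adjusted p = 0.00117), a 1.49-fold rise. With library size as the only scaling the combination value was 0.40 and missed the threshold (edgeR adjusted p = 0.0535).

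MIEF2, which encodes MiD49, the other MiD receptor, lies at chr17:18260597-18266552 on the + strand. It was scarce in every group, at 3.45, 3.18 and 3.05 CPM in control, 3.28, 3.32 and 1.23 under teriflunomide, 5.04, 4.89 and 4.72 under lurbinectedin, and 3.11, 2.91 and 6.70 under both drugs. Each lurbinectedin library was above each control library, but combination library 3 and teriflunomide library 3 departed from their groups. The lurbinectedin difference was 0.60 (SE 0.338, edgeR adjusted p = 0.127) and did not pass. The interval that this SE gives is wide, so in this fit a change of the size seen for MIEF1 cannot be told from none. MIEF2 was called in 4 of 15 alternative settings, among them the fit with only these groups.

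FIS1, at chr7:101239458-101252316 on the - strand, encodes a tail-anchored outer membrane protein. It had 39.6, 36.8 and 37.5 CPM in control, 39.4, 37.8 and 20.6 under teriflunomide, 53.2, 46.1 and 45.9 under lurbinectedin, and 37.9, 42.3 and 42.6 under both drugs. Lurbinectedin libraries were above all control and combination libraries. The difference from control was 0.35 (SE 0.186, edgeR adjusted p = 0.107), which did not pass in the fit across the 12 libraries. It did pass with only these groups in the fit (0.33, edgeR adjusted p = 3.90e-05), where the spread of teriflunomide library 3 does not enter, and was 0.11 with library size as the only scaling (edgeR adjusted p = 0.705).

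MFF, at chr2:227325151-227357836 on the + strand, encodes the mitochondrial fission factor, a principal receptor of DRP1. Its libraries had 44.4, 47.1 and 42.0 CPM in control, 48.2, 49.5 and 51.2 under teriflunomide, 41.6, 41.6 and 41.5 under lurbinectedin, and 47.9, 42.5 and 42.9 under both drugs. Teriflunomide libraries lay just above control and lurbinectedin libraries just below it. Neither the teriflunomide difference of 0.16 (SE 0.0966, edgeR adjusted p = 0.327) nor the lurbinectedin difference of -0.10 (SE 0.0970, edgeR adjusted p = 0.382) passed.

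Because MIEF1 and DNM1L moved in opposite directions with lurbinectedin, their ratio was examined, a description that follows from those values. MIEF1 counts per DNM1L count are not corrected for length, so only the change between groups can be read. The geometric mean was 0.569 in control, 0.411 under teriflunomide, 1.42 under lurbinectedin and 0.949 under both drugs. The teriflunomide libraries were at 0.535, 0.503 and 0.258, so much of the distance of their mean from control rests on library 3. Lurbinectedin gave a 2.50-fold higher ratio than control. The groups did not overlap, which was fixed in advance because MIEF1 lay above and DNM1L below control in every lurbinectedin library, so no p-value is given.

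Of the other membrane genes, MTFP1, at chr22:30425623-30429054 on the + strand, encodes an inner membrane protein that promotes fission. It was near the limit of detection, with 1.61, 1.34 and 1.46 CPM in control, 1.23, 0.808 and 0.136 under teriflunomide, 1.55, 1.09 and 1.31 under lurbinectedin, and 0.724, 1.31 and 1.08 under both drugs. The lowest value, in teriflunomide library 3, rests on 4 counts. The teriflunomide difference was -0.98 (SE 0.428, edgeR adjusted p = 0.174). It did not pass with all libraries. Its size rests on single libraries, at -0.53 without teriflunomide library 3 (edgeR adjusted p = 0.253) and -1.58 without teriflunomide library 1 (edgeR adjusted p = 0.0496). A further 55.5% of the exon bases of MTFP1 are shared with another annotated gene on the same strand that has 0 counts, so its counts may miss reads.

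MTFR1 and MTFR1L are related genes named as fission regulators. MTFR1, at chr8:65644734-65771261 on the + strand, had 84.2, 86.1 and 76.3 CPM in control, 81.5, 81.4 and 102 under teriflunomide, 37.2, 40.2 and 36.9 under lurbinectedin, and 41.1, 35.4 and 35.5 under both drugs. The libraries with lurbinectedin, alone or combined, were far below the other libraries and overlapped with each other. With lurbinectedin MTFR1 fell by 1.11 on the log2 scale (SE 0.117, edgeR adjusted p = 1.17e-06), which is 2.16-fold lower, and with the combination it fell by 1.14 (SE 0.117, edgeR adjusted p = 1.10e-06), which is 2.20-fold lower.

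MTFR1L, at chr1:25818640-25832942 on the + strand, had 47.1, 45.3 and 46.8 CPM in control, 50.3, 55.3 and 37.8 under teriflunomide, 31.3, 30.7 and 33.2 under lurbinectedin, and 35.5, 31.5 and 40.1 under both drugs. Lurbinectedin and combination libraries were all below control. It fell with lurbinectedin by 0.55 (SE 0.138, edgeR adjusted p = 0.00267), 1.46-fold lower, and with the combination by 0.38 (SE 0.137, edgeR adjusted p = 0.0253), 1.30-fold lower. The combination call was lost without control library 1 (edgeR adjusted p = 0.0601), control library 3 (edgeR adjusted p = 0.0599), combination library 1 (edgeR adjusted p = 0.0587) or combination library 2 (edgeR adjusted p = 0.0998). Use of strand in counting is not given in the sources used here, and 14.2% of the exon bases of MTFR1L lie opposite an antisense gene and 4.11% opposite AUNIP, whose reads could not then be told apart from its own. For the other fission genes at most 8.24% of exon bases, in MFF, lay opposite another gene.

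INF2, at chr14:104681146-104722535 on the + strand, encodes a formin that builds actin filaments at sites of constriction. It had 61.9, 59.7 and 65.2 CPM in control, 62.5, 57.2 and 29.5 under teriflunomide, 63.6, 68.8 and 68.4 under lurbinectedin, and 55.8, 49.9 and 69.5 under both drugs. The groups overlapped in all comparisons, and teriflunomide library 3 had less than any other library. The lurbinectedin difference was 0.10 (SE 0.211, edgeR adjusted p = 0.668).

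GDAP1, at chr8:74320613-74518007 on the + strand, encodes an outer membrane protein that is mutated in forms of Charcot-Marie-Tooth disease and promotes fission when overproduced. It had 49.6, 51.5 and 48.3 CPM in control, 51.5, 49.4 and 52.8 under teriflunomide, 43.8, 45.0 and 47.1 under lurbinectedin, and 51.8, 44.7 and 42.9 under both drugs. The lurbinectedin libraries were a little below control without overlap, a difference of -0.14 (SE 0.101, edgeR adjusted p = 0.240) that did not pass. It did pass with only these groups in the fit (-0.15, edgeR adjusted p = 0.0258).

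**Figure D2:**
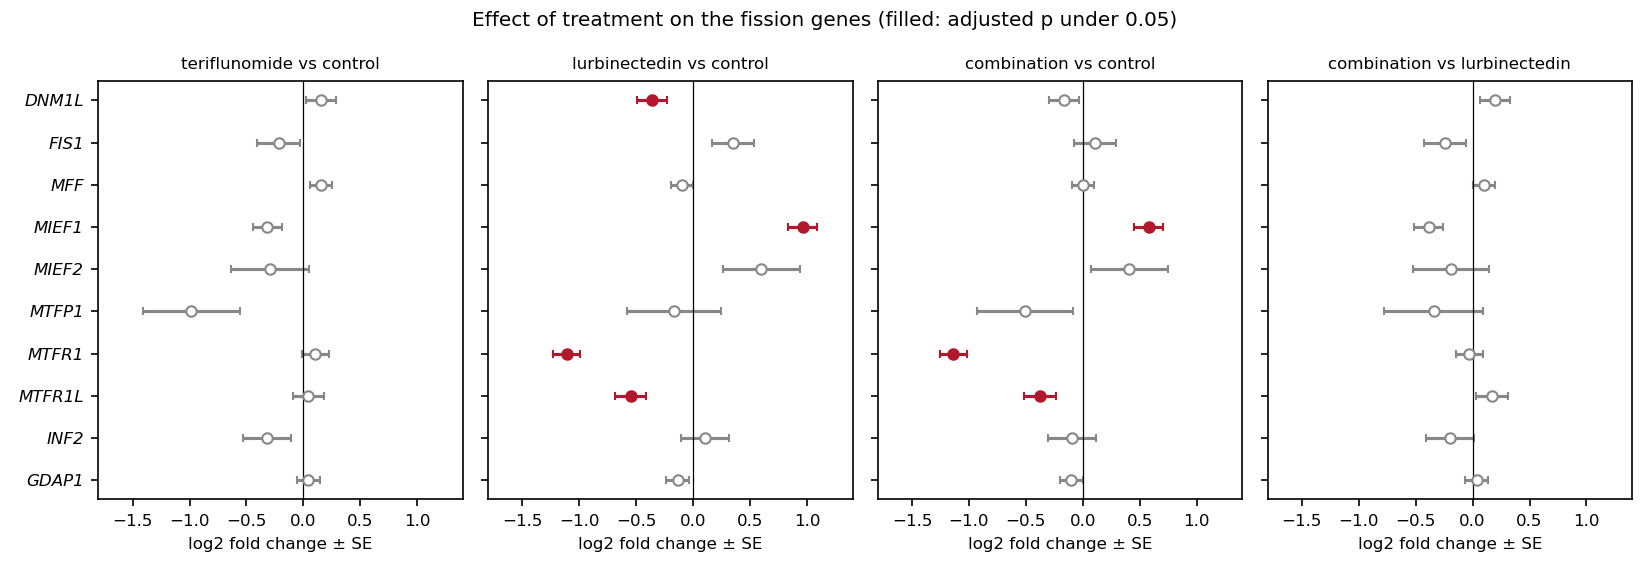
Log2 fold change ± SE of each fission gene in 4 comparisons, filled where the edgeR adjusted p is under 0.05. With lurbinectedin MIEF1 is called higher at 0.96 and MTFR1 (-1.11), MTFR1L (-0.55) and DNM1L (-0.36) lower (71.6% of all genes called). No fission gene is called with teriflunomide alone (6.01% of all genes) or when the combination is set against lurbinectedin (0.0%).

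Counted over the set, lurbinectedin called 4 of 10 fission genes against control, 1 higher and 3 lower, where 71.6% of all genes tested were called, 36.0% higher and 35.7% lower. The share of fission genes called lay below that of all genes, and this difference was not tested. By library values, 8 of 10 had groups that did not overlap, 3 above and 5 below control, where 83.2% of all genes did not overlap. The median log2 fold change over the 10 genes was -0.12, and 0.05 over all genes tested. With mitochondrially encoded genes left out of the fit the count was again 4, and without both libraries of high mitochondrial share it was 6, with FIS1 and MIEF2 added, where 79.6% of all genes were called.

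The combination called 3 of 10 genes against control, MIEF1 higher and MTFR1 and MTFR1L lower, where 68.4% of all genes were called, 34.1% higher and 34.4% lower. Without both libraries of high mitochondrial share 6 were called, where 74.2% of all genes were. By library values 5 genes did not overlap with control, 1 above and 4 below, where 77.2% of all genes did not. Against teriflunomide, the combination called 4 of 10, with 70.9% of all genes called, 35.2% higher and 35.8% lower; 1 gene lay above and 3 below without overlap, where 70.7% of all genes did not overlap. MIEF1 was 0.89 higher (SE 0.128, edgeR adjusted p = 2.61e-05), MTFR1 fell by 1.24 (SE 0.117, edgeR adjusted p = 4.24e-07), MTFR1L fell by 0.42 (SE 0.137, edgeR adjusted p = 0.0138) and DNM1L fell by 0.32 (SE 0.131, edgeR adjusted p = 0.0420). For DNM1L the difference was -0.12 without teriflunomide library 3 (edgeR adjusted p = 0.175), and its call was also lost without any 1 of the combination libraries (edgeR adjusted p = 0.0544, 0.0545 and 0.133 without library 1, 2 and 3). For MTFR1L the call was lost without teriflunomide library 2 (edgeR adjusted p = 0.0690) or combination library 2 (edgeR adjusted p = 0.0661). These comparisons share libraries and are given side by side only.

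Teriflunomide alone called 0 of 10 fission genes against control, where 6.01% of all genes were called, 3.88% higher and 2.13% lower. At an unadjusted p under 0.05 there were 2, MIEF1 and MTFP1, and DESeq2 called 0, where it called 12.3% of genes with an adjusted p. MIEF1 differed by -0.32 (SE 0.128, edgeR adjusted p = 0.145), with all 3 teriflunomide libraries below all control libraries, and by -0.18 without teriflunomide library 3 (edgeR adjusted p = 0.260). In all 3 genes had groups that did not overlap, MFF above control and MIEF1 and MTFP1 below, where 36.8% of all genes did not. The DNM1L difference was 0.16 (SE 0.131, edgeR adjusted p = 0.474), and without teriflunomide library 3 it was -0.05 (edgeR adjusted p = 0.789), so the sign rests on that library.

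The question of what teriflunomide added to lurbinectedin was addressed by the combination against lurbinectedin. None of the 10 genes was called by edgeR or DESeq2, where 0.0% of all genes were called by edgeR and 4.94% of those with an adjusted p by DESeq2. MIEF1 was the 1 gene with an unadjusted p under 0.05. Its difference was -0.39 on the log2 scale (SE 0.127, edgeR adjusted p = 0.200), and all 3 combination libraries lay below all lurbinectedin libraries. In all 4 genes had groups that did not overlap, DNM1L and MFF above and MIEF1 and FIS1 below, where 23.7% of all genes did not. Without both libraries of high mitochondrial share 3 genes were called, FIS1, MIEF1 and MTFR1L, where 21.5% of all genes were called in the same fit. The interaction, which is the teriflunomide effect with lurbinectedin minus that without it, called 0 of 10 fission genes, where 0.258% of all genes were called (0.036% higher and 0.222% lower), and 0 had an unadjusted p under 0.05. DESeq2 also called 0, where it called 1.82% of genes with an adjusted p. For DNM1L it was 0.04 (SE 0.186, edgeR adjusted p = 0.965).

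Genomic span was set against the lurbinectedin effect gene by gene. All tested nuclear genes were divided into 10 bins of span, and each fission gene was compared with the median of its bin. DNM1L, at -0.36, and MTFR1, at -1.11 with a span of 127 kb, lay close to the medians of -0.61 and -1.27 of their bins. MIEF2, at 0.60, lay close to 0.65. GDAP1, with the largest span of the set at 197 kb, was at -0.14 where its bin had a median of -2.80. Its span is 168 kb in GENCODE 29. A span here runs between the outermost annotated exons of a gene, so the transcripts in use may be shorter, which was not tested. MTFR1L went the other way: with 14.3 kb it was at -0.55 where its bin had 0.60. MTFP1, at -0.17, lay below its bin median of 0.64 and MIEF1, at 0.96 with 18.7 kb, above its bin median of 0.38. Across the 10 genes the Spearman correlation of span with the lurbinectedin effect was -0.370, and across 16651 nuclear genes it was -0.572. Both are descriptions across genes, which are not independent replicates.

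**Figure D3:**
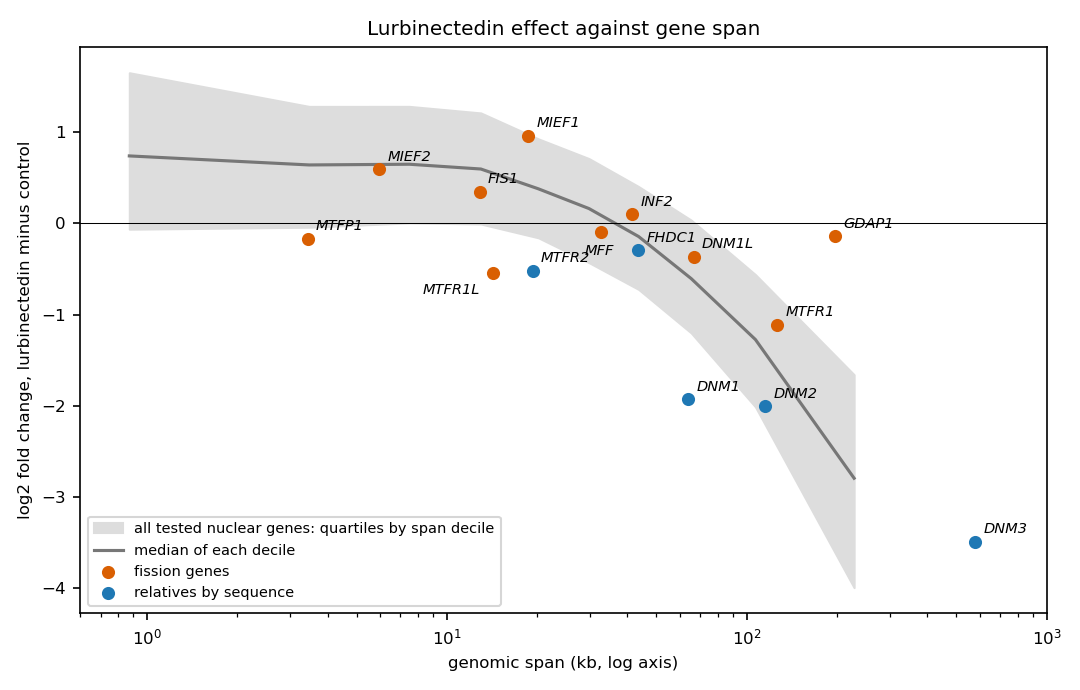
Log2 fold change with lurbinectedin (vertical axis) against genomic span in kb (log axis) for the 10 fission genes and 5 related genes; the line is the median and the band the quartiles of all tested nuclear genes in 10 span bins. GDAP1, at -0.14, lies far above the median of -2.80 of its bin, and MTFR1L, at -0.55, below the 0.60 of its bin. Spans cover all annotated exons of a gene, and the transcripts in use may be shorter.

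Genes related in sequence to the members were set beside them. Of 5 tested relatives, 4 fell and 0 rose with lurbinectedin against control, where 35.7% of all genes were called lower and 36.0% higher. Among them were the classical dynamins, which cut vesicles from the plasma membrane. DNM3 was at 43.5 ± 1.03 CPM in control and 3.86 ± 0.305 with lurbinectedin (log2 fold change -3.49, with SE 0.170, edgeR adjusted p = 6.36e-10), DNM2 at 142 ± 2.33 and 35.4 ± 1.26 CPM (-2.00, SE 0.136, edgeR adjusted p = 1.45e-08) and DNM1 at 55.2 ± 3.02 and 14.5 ± 2.82 CPM (-1.93, SE 0.193, edgeR adjusted p = 6.91e-07). DNM1 spans 63.6 kb, close to the 66.5 kb of DNM1L, yet was at -1.93 where DNM1L was at -0.36; the difference between the genes was not tested. DNM2 spans 115 kb and DNM3 577 kb, and the medians of their span bins were -1.27 and -2.80. MTFR2, related to MTFR1, was also called lower (-0.52), FHDC1, a formin related to INF2, was at -0.29 and not called, and GDAP1L1 was too low to be tested. With the combination the same 3 dynamins were at -2.93, -1.70 and -1.64.

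The kinases, phosphatases and modifiers that act on DRP1 were counted from lists written from general knowledge. Of 19 tested kinases and phosphatases, lurbinectedin called 6 higher and 7 lower, and of all genes 36.0% and 35.7%. The catalytic and regulatory subunits of calcineurin, the phosphatase that activates DRP1, were among the falls. PPP3CA was at 81.7 ± 2.22 CPM in control and 1.42 ± 0.537 CPM with lurbinectedin (-5.84, SE 0.281, edgeR adjusted p = 5.89e-10). PPP3CB was at 52.1 ± 1.99 and 21.3 ± 1.196 CPM (-1.29, SE 0.107, edgeR adjusted p = 9.93e-08). PPP3CC and PPP3R1 were called lower at -1.33 and -0.86. ROCK1, a kinase that phosphorylates DRP1, was at 94.2 ± 5.66 and 15.5 ± 3.01 CPM (-2.60, SE 0.228, edgeR adjusted p = 1.93e-07). Among the rises was CDK1, the mitotic kinase that phosphorylates DRP1, from a mean of 147 to 257 CPM. PGAM5, at 0.90, and CAMK1, at 1.10, were also among them. PPP3CA spans 325 kb, ROCK1 165 kb and the median of their span bin was -2.80.

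Of 9 ubiquitin and SUMO regulators, lurbinectedin called 2 higher and 5 lower, where 36.0% of all genes were called higher and 35.7% lower. MUL1, a ligase of the outer membrane, rose by 0.81 (SE 0.200, edgeR adjusted p = 0.00238), while USP30, a deubiquitinase there, fell by 0.60 (SE 0.106, edgeR adjusted p = 0.000178). Of 20 actin, endoplasmic reticulum and membrane partners, 6 were called higher and 11 lower, beside the same 36.0% and 35.7% of all genes. SPIRE1, the actin nucleator that works with INF2, was at 52.2 ± 2.04 and 4.29 ± 0.237 CPM (-3.60, SE 0.258, edgeR adjusted p = 2.36e-08). The myosin genes MYH10 and MYH14, which drive constriction, were at -2.29 and -2.11 (edgeR adjusted p = 4.17e-09 and 6.15e-10), whereas INF2 itself was at 0.10. SPIRE1 spans 212 kb and MYH10 157 kb, and the median of their span bin was -2.80. INF2 spans 41.4 kb, and its bin had a median of -0.14. Among the rises were CFL1, at 0.57, and ARPC2, at 0.55, which turn over and branch actin.

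With the combination against control the same lists gave 4 higher and 8 lower of 19, 2 and 3 of 9, and 3 and 9 of 20. Of all genes, 34.1% were called higher and 34.4% lower in that comparison. PPP3CA was at -4.57, MYH14 at -1.91, MYH9 at -1.11 and CDK1 at 0.83. Against lurbinectedin the combination called 0 in every one of the 4 lists, where 0.0% of all genes were called. The smallest edgeR adjusted p was 0.151 in the first 3 lists and 0.178 among the relatives, and 5, 1, 7 and 3 genes had an unadjusted p under 0.05. The highest log2 fold change in these lists was that of PPP3CA, at 1.27 (SE 0.289, edgeR adjusted p = 0.151), with 3.45 ± 1.48 CPM in the combination and 1.42 ± 0.537 with lurbinectedin. Teriflunomide alone called 1 of 19 kinases and phosphatases higher and 1 lower, 0 of 9 modifiers, 1 of 20 partners higher and 0 of 5 relatives. Of all genes it called 3.88% higher and 2.13% lower. PINK1, a mitochondrial kinase of the mitophagy pathway, rose by 0.63 (SE 0.146, edgeR adjusted p = 0.0249). PIM1, a kinase that phosphorylates DRP1, fell by 1.08 (SE 0.190, edgeR adjusted p = 0.00638). STX17, a SNARE protein that binds DRP1 at contact sites, rose by 0.64 (SE 0.116, edgeR adjusted p = 0.00699) with teriflunomide and was at -1.37 with lurbinectedin. Whether the teriflunomide calls of PINK1, PIM1 and STX17 hold without teriflunomide library 3 is not given here.

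Teriflunomide library 3 departed from the other 2 of its group in a way that followed base composition. The deviation of each fission gene there was its log2 level minus the mean log2 level of libraries 1 and 2. Before log2 was taken, 0.5 CPM was added to each level, which makes the deviations of the scarce genes MTFP1 and MIEF2 smaller. GC content was taken over the transcripts of each gene. The AT-rich genes DNM1L (42.4% GC) and MTFR1 (40.9%) were at 0.54 and 0.33, and the GC-rich genes INF2 (64.1%), MIEF2 (63.6%) and MTFP1 (61.9%) at -1.01, -1.14 and -1.24. MFF (46.1%) and GDAP1 (46.0%) were at 0.07. Across the 10 genes the Spearman correlation was -0.915 (Pearson -0.973), and -0.640 across 16466 nuclear genes. For combination library 3 the value over the fission genes was 0.794, with MIEF2 at 1.04, and over all genes 0.541. For combination library 2 these values were -0.212 and -0.272, and for control library 3 they were 0.479 and 0.248. These are descriptions across genes of single libraries, and the part of GC content in the treatment comparisons was not tested. A GC correction within groups took out only the deviation of each library from its own group mean. GC differences between group means stay in, so it cannot separate GC content from treatment. It lowered the biological coefficient of variation from 14.5% to 11.2%, and more genes were called. Teriflunomide then called 2 of the 10 genes against control, MIEF1 and INF2, where the same fit called 19.6% of all genes and the main fit 6.01%. Lurbinectedin then called 6, with FIS1 and MIEF2 added, where it called 75.5% of all genes.

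**Figure D4:**
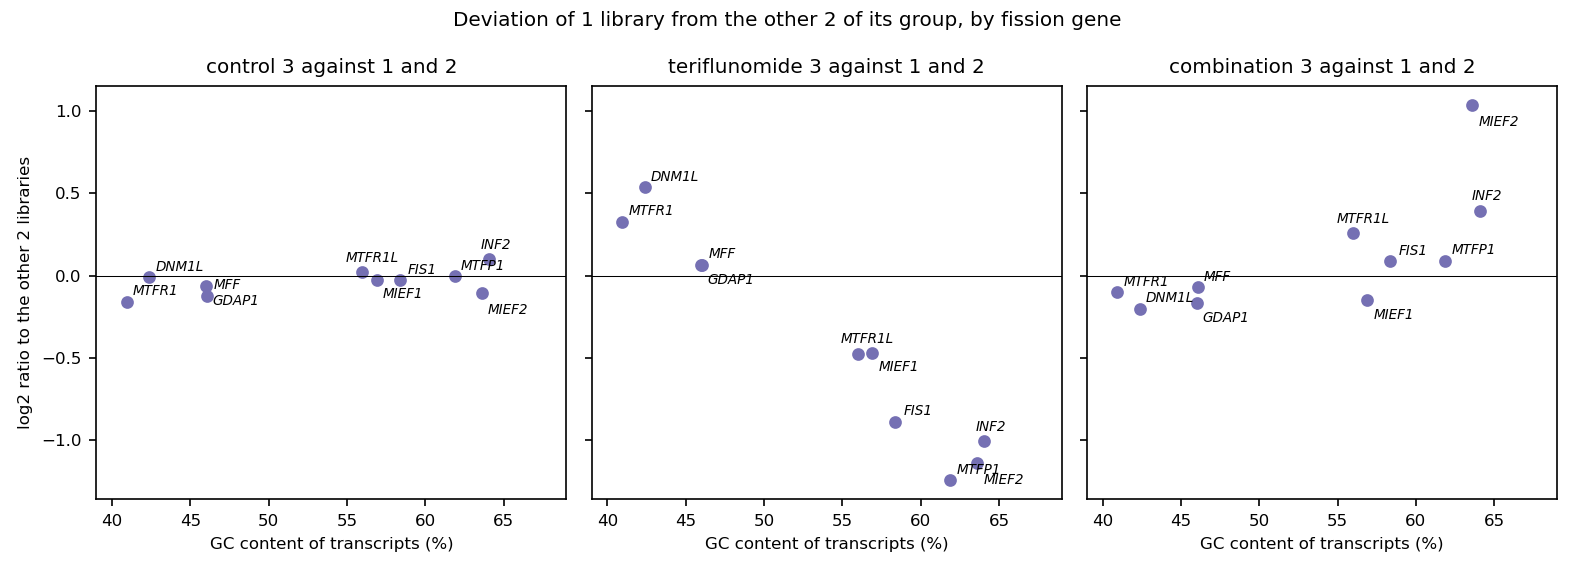
Log2 ratio of 1 library to the other 2 of its group (vertical axis) against GC content of transcripts in percent. The 10 fission genes are shown in control, teriflunomide and combination library 3, with 0.5 CPM added to each level before log2. In teriflunomide library 3 the points run from 0.54 for DNM1L at 42.4% to -1.24 for MTFP1 at 61.9%, while in control library 3 they stay near 0.

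The genes whose levels over the 12 libraries were most like DNM1L were named from 10304 genes with a mean of at least 5 CPM, by Pearson correlation of log2 CPM. They were PSIP1 at 0.993, SMC5 at 0.989, CENPE at 0.987, and ARID4A and SCAF11 at 0.986. Without teriflunomide library 3 PSIP1 ranked 1, at 0.984, SCAF11 ranked 2, SMC5 3, CENPE 6 and ARID4A 12. Among the fission genes FIS1 was the most opposite to DNM1L, at -0.964 (-0.945 without that library), and MIEF1 was at -0.878. The 12 libraries fall into 4 groups and share the spread in GC content described above, so these values are descriptions.

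The promoters of the genes were examined because lurbinectedin binds guanines in GC-rich triplets such as CGG. The 250 bases before each RefSeq start (build GRCh38.p14) held 15 CGG or CCG for DNM1L, more than in 70.2% of 35114 promoters, and 19 for MIEF1, more than in 79.8%; the median was 7, and 84.9% of promoters held CGG. The count takes in both strands and overlapping matches. The parts of these windows that lie outside every annotated exon are shown for DNM1L, which fell, MIEF1, which rose, and MFF, which was not called, all on the + strand, with CGG and CCG in capitals.
DNM1L chr12:32679051-32679199: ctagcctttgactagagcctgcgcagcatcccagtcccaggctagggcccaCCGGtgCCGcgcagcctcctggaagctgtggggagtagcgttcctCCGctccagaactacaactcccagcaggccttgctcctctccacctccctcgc
MIEF1 chr22:39502040-39502210: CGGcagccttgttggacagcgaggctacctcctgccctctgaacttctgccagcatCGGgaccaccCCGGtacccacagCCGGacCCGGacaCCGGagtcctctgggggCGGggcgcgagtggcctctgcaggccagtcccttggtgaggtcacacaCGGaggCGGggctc
MFF chr2:227325001-227325117: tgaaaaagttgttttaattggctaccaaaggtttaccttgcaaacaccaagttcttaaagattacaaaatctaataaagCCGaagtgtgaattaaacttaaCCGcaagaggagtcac
The stretch of MIEF1 holds 13 such triplets in 171 bases, that of DNM1L 4 in 149 and that of MFF 2 in 117. Their lengths differ, so these counts cannot be set against each other. The full windows of 250 bases hold 19, 15 and 9, and the windows at the other RefSeq starts of MFF hold 0. MTFR1L, which fell, has windows with 13 to 21. Of the other genes not called, FIS1 has 16, MIEF2 12 in each window, INF2 3 to 20 and MTFP1 5. The windows of MTFR1 and GDAP1 were not analysed here, and the part of these triplets in the differences was not tested. A match describes the sequence and is no binding site.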

How the data were processed

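Polyadenylated RNA of SBC3 spheroids was sequenced in 12 libraries. Per the submitters' processing notes, reads were handled with fastp 0.23.2, STAR 2.7.9 and featureCounts of Subread on hg38; the annotation release, use of strand and treatment of multi-mapping reads are not given in the sources used here. The authors deposited raw counts per gene. Positions of all 37318 identifiers with the same version were identical in GENCODE 29; symbols matched 60507 of 60649.

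Counts were tested with edgeR 4.0.16 in R 4.3.3: filterByExpr, TMM scaling, 1 mean per group, robust quasi-likelihood, all 12 libraries, 6 contrasts, Benjamini-Hochberg adjustment over 16683 genes. The biological coefficient of variation was 14.5%. SE was derived from the F statistic. The fit was tested on simulated data. Alternatives, listed in the closing section, included DESeq2 1.42.0. Leaving out both libraries of high mitochondrial share and the GC correction (an offset from 20 GC bins) were chosen after seeing the data.

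The fission genes and wider lists were chosen with earlier results of these data known. All 10 members were named; from 4 wider lists the 3 members with the smallest adjusted p in each contrast were eligible to be named, other named members were chosen after their values were seen, and for DNM1L the 5 most correlated genes were named. Contrasts in which no list member was called are given mainly as counts. The values of 2 listed genes are not reported here. Promoter sequences are from RefSeq. Total counts ranged from 23206414 to 33222162, which leaves MTFP1 with 4 to 49 counts per library.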

Additional observations from a re-analysis of the deposited data

How the results depend on the processing

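The direction and call of most values held under most alternatives: of 190 values for the counts and for DNM1L, 166 kept their direction and their side of the threshold or, for counts, a similar size. Precision for MTFP1 and MIEF2 is limited by low counts.

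Replicate numbers did not pair the libraries. Same-numbered libraries deviated together (r over 0.1) in 4 of 18 pairs, with r from -0.547 to 0.248, and 2 of 12 libraries correlated best with their own number. With the replicate block DNM1L in the combination against teriflunomide was -0.31 (edgeR adjusted p = 0.0670), and the count of called fission genes there was 3.

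With library size as the only scaling, which moved the median of all genes to -0.18 for lurbinectedin and -0.13 for the combination against control, lurbinectedin called 6 fission genes (66.0% of all genes), with MFF (-0.33, edgeR adjusted p = 0.0492) and GDAP1 (-0.37, edgeR adjusted p = 0.0324) added. DNM1L in the combination was -0.34 and passed, FIS1 in the combination was -0.0598, INF2 with lurbinectedin -0.13, MTFR1L -0.0149 and GDAP1 -0.0420 with teriflunomide, and MTFR1 in the combination against lurbinectedin 0.0406. None of these last 5 was called. The cause was not tested.

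With only the groups compared in the fit, lurbinectedin called 7 fission genes (83.8% of all genes) and the combination against teriflunomide 2 (62.7%), DNM1L there was -0.31 and MFF in the combination against control 0.0113. Without the filter on low counts teriflunomide called 1 gene, MTFP1.

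Without both libraries of high mitochondrial share, DNM1L was -0.0462 with teriflunomide, -0.20 in the combination against control and -0.15 against teriflunomide, and the combination called 6 genes against control and 3 against lurbinectedin. Uncalled values that turned there were FIS1 0.0234, MIEF2 0.0355 and MTFR1 -0.0131 with teriflunomide, MFF 0.0226 and INF2 0.00158 in the combination against control, MIEF2 0.0280 and MTFR1 0.00973 against lurbinectedin, and MTFP1 -0.17 against teriflunomide. With GC content corrected within groups, which leaves GC differences between group means in place, teriflunomide called 2 fission genes (19.6% of all genes). The combination then called 1 against lurbinectedin (4.6% of all genes) and 7 against teriflunomide (75.2%), and MFF in the combination against control was 0.00668.

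With each library left out in turn, DNM1L ranged from -0.39 to -0.34 with lurbinectedin, -0.0472 to 0.26 with teriflunomide, -0.43 to -0.12 in the combination against teriflunomide and -0.0632 to 0.25 for the interaction, and teriflunomide called 0 to 1 genes. Signs of uncalled values turned for teriflunomide against control in FIS1 (-0.37 to 0.0223), MIEF2 (-0.49 to 0.0342), MTFR1 (-0.0142 to 0.16) and MTFR1L (-0.0705 to 0.18). They also turned for the combination against control in MFF (-0.0607 to 0.0374), MIEF2 (-0.0970 to 0.61) and INF2 (-0.24 to 0.00321), against lurbinectedin in MIEF2 (-0.70 to 0.0178), MTFR1 (-0.0960 to 0.0188) and GDAP1 (-0.0416 to 0.0911), and against teriflunomide in INF2 (-0.0431 to 0.42).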
